A study of Mus musculus with 29 samples.

Results

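The 52 keratin genes of the array were followed through 6 groups of mice with and without colitis induced by dextran sodium sulphate (DSS), a sulphated polysaccharide that injures the colonic epithelium when given in drinking water. They are all the genes whose array annotation gives a probe set the sole symbol Krt followed by a number and at most 1 letter, among 19938 genes with 1 symbol. Each of the 52 had 1 probe set, and the symbol was the only criterion. Colon RNA from 29 female C57BL6J mice, 6 weeks old when the experiment began, was hybridized to Affymetrix Mouse Gene 1.0 ST arrays, with 1 array per mouse. The 5 control mice drank plain water throughout, the 4 acute mice drank DSS for 7 days and were then killed, and a cycle was 7 days of DSS and then 2 weeks of water. There were 5 mice each after 1 cycle, 2 cycles and 3 cycles, and 5 recovery mice that had a further 3 weeks of water after 2 cycles. By the study's account, mice of all groups were matched for age when killed. All values are log2 expression values, so a difference of 1 is a 2-fold difference, and values are compared between mice for the same gene, never between genes. From each mouse a piece of distal colon with the most infiltrated wall was used, and how far it lay from the anus is not given in the sources used here.

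Keratins are the intermediate filament proteins of epithelial cells. A filament forms from pairs of a type I and a type II keratin, so epithelia make matched partners. The absorptive and goblet cell layer of the colon is a simple epithelium built on Krt8 with Krt18, Krt19 and Krt20. Stratified epithelia such as oesophagus, skin and the anal lining make Krt5 and Krt14 in the basal layer, then Krt4 and Krt13 in mucosal suprabasal cells or Krt1 and Krt10 in epidermal ones. Krt6a, Krt6b, Krt16 and Krt17 are induced in stratified epithelium at wound edges and in hyperproliferation, and the hair keratins build the shaft and inner root sheath of hair. The 52 genes held 6 keratins of simple epithelium, 3 of the basal layer, 4 mucosal and 5 epidermal suprabasal keratins, 4 wound keratins, 13 of the hair shaft, 9 of the hair root sheath and companion layer, and 8 others.

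Promoter windows were available in RefSeq for 36 of the 52 keratins, on build GRCm38.p6. The bases just before the transcription start are shown for the 4 keratins with a window that were called higher after recovery, Krt5 (chr15:101712906-101712985), Krt14 (chr11:100206031-100206110), Krt13 (chr11:100121567-100121646) and Krt84 (chr15:101532821-101532900), and for Krt20 (chr11:99438154-99438233), a colonic keratin that was not. All are on the minus strand, are written 5′ to 3′, and end at the base before the start. Capitals mark the letters ATAAA, the core of a TATA box, where they occur between 45 and 16 bases before the start.
Krt5: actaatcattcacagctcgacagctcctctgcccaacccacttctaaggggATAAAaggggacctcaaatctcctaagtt
Krt14: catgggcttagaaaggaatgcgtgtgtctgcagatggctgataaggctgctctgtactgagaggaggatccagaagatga
Krt13: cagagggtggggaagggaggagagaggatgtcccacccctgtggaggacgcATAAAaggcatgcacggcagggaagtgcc
Krt84: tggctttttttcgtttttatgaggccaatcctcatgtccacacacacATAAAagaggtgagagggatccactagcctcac
Krt20: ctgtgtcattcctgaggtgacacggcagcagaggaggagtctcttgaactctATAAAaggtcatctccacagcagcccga
ATAAA stood in that interval on the sense strand in 20 of the 36 keratins, 55.6%, against 4.83% of all 32851 windows. A keratin counted if any of its windows held the letters, while the share of all windows was counted per window. On the opposite strand it stood in 0 keratin promoters, against 2.72% of all windows. The letters occurred in 3 of the 4 keratins called after recovery that had a window and in 17 of the 32 that were not called. The motif was picked after the windows had been seen, and a match describes the letters only.

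Some features of the arrays bear on the results below. Array medians lay between 6.02 and 6.14 and correlations between arrays between 0.943 and 0.992. The arrays were split into 2 sets on a single probe set without gene symbol. It was picked as the one, among such probe sets, with the widest gap between arrays and several arrays on each side. Its values were at most 8.14 in 14 arrays and at least 11.09 in the other 15, and the sets rest on it alone. All control and 1 cycle arrays were in the low set and all 3 cycles and recovery arrays in the high set, while the acute group had 2 in each, and the 2 cycles group had 2 low and 3 high. In the keratins, 2 mice stood apart from their groups: G3 of the 3 cycles group was high and M5 of the recovery group was low, and the called keratins are given with and without M5, and Krt5, Krt7, Krt9 and Krt84 after 3 cycles with and without G3. Both mice were singled out on their keratin values, so fits without them are no independent support. The mean over 14 colonic epithelium genes, among them Cdx1, Cdh17 and Epcam, ranged from 10.17 to 11.05 over all mice, with the lowest value in an acute mouse. In whole tissue, fewer cells of a type and less RNA per cell cannot be told apart.

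The keratins that were called after recovery were, apart from Krt84, basal, suprabasal and wound keratins of stratified epithelium. Against control, 10 of the 52 keratins were called higher in the recovery mice at an adjusted p under 0.05 and a fold above 2 (limma), where 1.08% of all 35511 probe sets were called higher. They were 2 of 3 basal, 2 of 4 mucosal, 1 of 5 epidermal and 4 of 4 wound keratins, and 1 of 13 hair shaft keratins, and they comprised 4 of the 28 type I and 6 of the 24 type II keratins. None of the 6 simple, 9 root sheath and 8 other keratins was called. The median log2 difference was 3.35 for the basal, 2.10 for the mucosal, 2.67 for the wound and 0.28 for the epidermal keratins, against 0.22 for the simple, 0.03 for the hair shaft and -0.03 for the root sheath keratins, and near 0 over all probe sets. At the adjusted p alone, 14 keratins rose, with a background of 6.05%, and 0 fell (background 6.61%). No keratin was called lower (background 0.563%), and before adjustment Krt26 was the only one lower at a p under 0.05. The share of all probe sets at an unadjusted p under 0.05 was not counted, so counts at that limit have no background. Over all 29 mice, the values of 17 keratins spanned at least 1, as did 31.2% of all probe sets, and those of 6 keratins spanned at least 5, as did 86 probe sets or 0.242% of all.

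**Figure D1:**
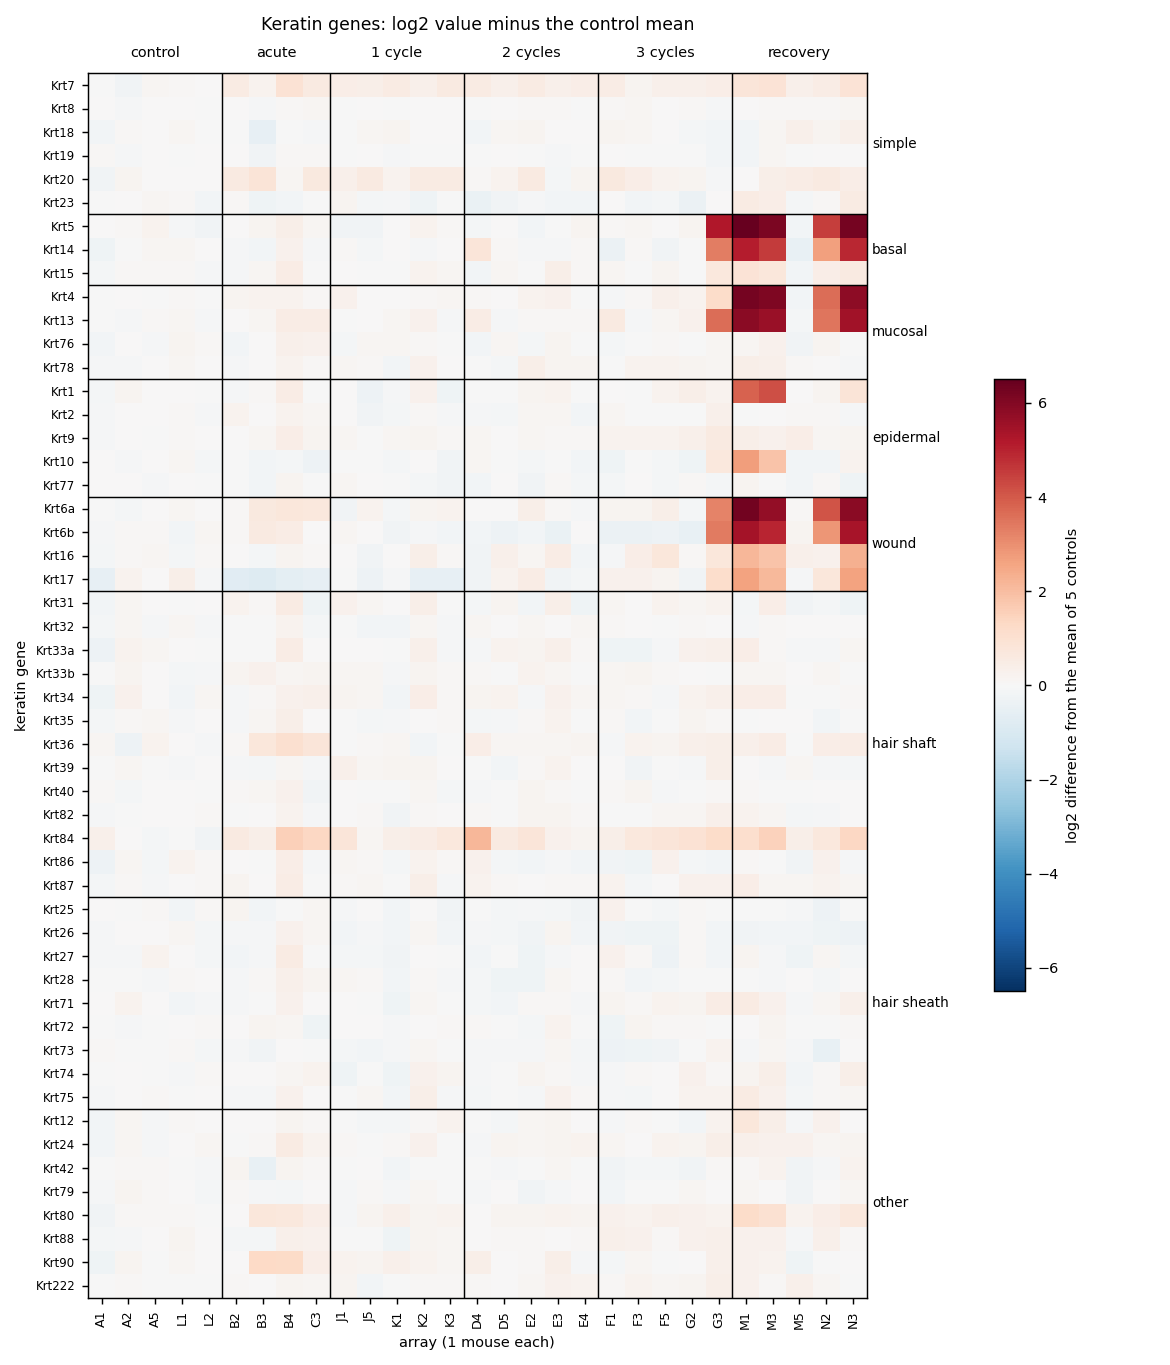
Heatmap of the 52 keratins (rows, grouped by class) in the 29 mice (columns, grouped by treatment), coloured by the log2 difference from the mean of the 5 controls. The dark red blocks are basal, mucosal and wound keratins in recovery mice M1, M3, N2 and N3 and in 3 cycles mouse G3, and recovery mouse M5 is pale.

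Krt5, the type II keratin of basal cells, had values of 12.15, 11.80, 5.52, 10.19 and 11.90 in recovery mice M1, M3, M5, N2 and N3, against 5.71, 5.77, 5.91, 5.62 and 5.48 in controls A1, A2, A5, L1 and L2. M1, M3, N2 and N3 were far above every control and M5 lay within the control range. The mean was 10.31 ± 2.79 (SD, n = 5) after recovery and 5.70 ± 0.16 (SD, n = 5) in controls, a log2 difference of 4.62 (SE 0.90, 24.5-fold, adjusted p = 0.0016, limma). Krt14, its type I partner, read 11.64, 11.07, 6.03, 9.17 and 11.42 in the same recovery mice and between 6.27 and 6.67 in controls, a log2 difference of 3.35 (SE 0.71, 10.2-fold, adjusted p = 0.00322). Its order of mice was that of Krt5, and M5 was below every control. Krt15, a type I keratin of basal cells and of hair follicle stem cells, read 6.33, 6.20, 5.28, 5.88 and 6.00 against 5.33 to 5.52 in controls. Its log2 difference of 0.50 (SE 0.15, adjusted p = 0.0288) passed the adjusted p without reaching 2-fold, and it missed the adjusted p when M1, M3 or N3, or control A1 or L2, was left out (adjusted p from 0.0527 to 0.107), with only these groups fitted (0.0661), or with the array sets described above as a covariate (0.645).

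Among the mucosal keratins, the pair Krt4 and Krt13 rose and the other 2 did not pass the test. Krt4, the type II member, had recovery values of 11.02, 10.84, 4.58, 8.40 and 10.61 in M1, M3, M5, N2 and N3 and control values of 4.74, 4.78, 4.73, 4.86 and 4.76. Its mean of 9.09 ± 2.74 (SD, n = 5) against 4.78 ± 0.05 (SD, n = 5) was a log2 difference of 4.31 (SE 0.69, 19.9-fold, adjusted p = 0.000297). Krt13, the type I member, read 11.33, 11.07, 5.35, 8.94 and 10.90 after recovery and between 5.37 and 5.57 in controls, a log2 difference of 4.05 (SE 0.73, 16.6-fold, adjusted p = 0.000923). In both genes M5 lay below the lowest control and N2 lay between M5 and the other 3 mice. Krt76, a type II keratin of the palate and other cornified oral epithelium, differed by 0.06 (95% interval -0.15 to 0.27), and Krt78 by 0.14 (95% interval -0.06 to 0.34).

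All 4 wound keratins rose after recovery. Krt6a, a type II keratin induced at wound edges, read 10.88, 10.32, 4.70, 8.70 and 10.48 in M1, M3, M5, N2 and N3 and 4.59, 4.49, 4.64, 4.76 and 4.67 in controls, a log2 difference of 4.39 (SE 0.73, 20.9-fold, adjusted p = 0.000422). Krt6b read 11.04, 10.57, 5.80, 8.47 and 10.96 against 5.43 to 5.73, a log2 difference of 3.75 (SE 0.70, 13.4-fold, adjusted p = 0.00128). Krt6b was the only one of these keratins with a difference above 10-fold in which all 5 recovery mice exceeded all controls, M5 by 0.06. Krt6a and Krt6b are close paralogs, and whether each probe set reads its own transcript alone was not tested. The type I partners moved less: Krt17 read 9.03, 8.56, 6.35, 7.20 and 9.04 against 5.93 to 6.81, a log2 difference of 1.60 (SE 0.35, 3.03-fold, adjusted p = 0.00397). Krt16 read 6.98, 6.69, 5.14, 5.08 and 7.15 against 4.69 to 4.95, a log2 difference of 1.39 (SE 0.29, 2.61-fold, adjusted p = 0.00274). In Krt16 N2 was the lowest recovery mouse, a little below M5.

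The epidermal keratins were high in fewer mice. Krt1, the type II keratin of differentiating epidermis, read 9.04, 9.38, 5.26, 5.37 and 6.07 in M1, M3, M5, N2 and N3, against 5.07, 5.38, 5.22, 5.23 and 5.19 in controls. M1 and M3 were high, N3 was above every control, and M5 and N2 overlapped the controls. Its log2 difference of 1.81 (SE 0.51, 3.50-fold, adjusted p = 0.0213) missed the adjusted p when M1 (adjusted p = 0.0876) or M3 (adjusted p = 0.0717) was left out, or when only these groups were fitted (adjusted p = 0.143). Krt10, the type I partner, was highest in M1 at 8.83 and next in M3, while M5, N2 and N3 read 5.97, 5.95 and 6.35 against 6.00 to 6.26 in controls, and its log2 difference of 0.89 (SE 0.35, adjusted p = 0.0893) did not pass. It passed without M5 (adjusted p = 0.0258) and without N2 (adjusted p = 0.0313). Krt9, of the thick epidermis of palms and soles, was higher by 0.28 (SE 0.07, adjusted p = 0.0119), with all 5 mice above the controls but every value under 5. Krt2 differed by 0.01 and Krt77 by -0.05.

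Of the hair shaft keratins, Krt84, a type II keratin of the hair cuticle, nail and tongue papillae, was the only one called. It read 6.31, 6.69, 5.61, 5.88 and 6.55 in M1, M3, M5, N2 and N3 and 5.52, 5.22, 5.10, 5.20 and 4.97 in controls, so the groups did not overlap. The log2 difference of 1.00 (SE 0.28, 2.01-fold, adjusted p = 0.0205) lay at the fold limit and missed the adjusted p without M1 (adjusted p = 0.0510) or M3 (adjusted p = 0.0621). Krt84 was also above all controls in every acute and 3 cycles mouse. The other 12 hair shaft keratins differed by -0.08 to 0.33 and the 9 root sheath keratins by -0.23 to 0.22. None of them passed the adjusted p (background 6.05% higher and 6.61% lower). Among 9 hair follicle genes that are not keratins, none was called (background 1.08% higher and 0.563% lower). At the adjusted p alone, 1 was higher (background 6.05%) and 0 lower (background 6.61%). The 1 was S100a3, a calcium-binding protein of the hair cuticle, with a log2 difference of 0.57 (SE 0.11, adjusted p = 0.00198). Of the 8 other keratins, Krt80 passed the adjusted p, with 7.43, 7.23, 6.49, 6.68 and 6.92 against 5.99 to 6.34 in controls and a log2 difference of 0.71 (SE 0.13, adjusted p = 0.00133). In 8 keratins every recovery mouse lay above every control (Krt6b, Krt7, Krt9, Krt16, Krt24, Krt80, Krt84 and Krt87), against 6.44% of all probe sets, and in 1, Krt26 of the root sheath, every recovery mouse lay below every control, against 6.42%. The larger risers Krt5, Krt14, Krt4, Krt13 and Krt6a were not among these, since M5 overlapped the controls or lay below them.

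The order of the recovery mice was similar across the called keratins. M5 was the lowest recovery mouse in 9 of the 10 called keratins and the second lowest in the other, and N2 was the second lowest in 9. M1 was the highest in 6, M3 in 2 and N3 in 2. Counting the keratins more than 1 log2 unit above the highest control, M1 had 11, M3 had 11, N3 had 9, N2 had 6 and M5 had 0. At the same limit 1.37% of all probe sets lay above the controls in M1, 1.09% in M3, 0.527% in N3, 1.03% in N2 and 0.310% in M5. The 6 in N2 were Krt5, Krt14, Krt4, Krt13, Krt6a and Krt6b. Without M5, 11 keratins were called against control, and without N2 also 11, while leaving out M1 or M3 gave 8 and leaving out G3 gave 10. Without M5 the log2 difference from control was 5.82 for Krt5 (SE 0.65, adjusted p = 4.5e-06) and 5.44 for Krt4 (SE 0.32, adjusted p = 7.65e-11). It was then 4.30 for Krt14 (adjusted p = 7.71e-06), 5.09 for Krt13 (adjusted p = 4.93e-07), 5.47 for Krt6a (adjusted p = 5.67e-08) and 4.64 for Krt6b (adjusted p = 6.36e-06). The smaller differences without M5 were 1.65 for Krt16 (adjusted p = 0.000289), 2.02 for Krt17 (adjusted p = 5.46e-05), 2.25 for Krt1 (adjusted p = 0.00383) and 1.15 for Krt84 (adjusted p = 0.0109). Each of the 10 was larger than with M5, which had to follow because M5 lay below the recovery mean in each. M5 was singled out on these same values, so the p-values without it are no independent support.

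G3 of the 3 cycles group carried the same 6 keratins as N2. Krt5 read 5.78, 5.83, 5.75 and 5.85 in F1, F3, F5 and G2 and 10.91 in G3, and Krt14 read 6.15, 6.58, 6.28 and 6.47 in those mice and 9.85 in G3. Krt13 was at 9.08, Krt6a at 7.85 and Krt6b at 8.99 in G3, with the other 4 mice at no more than 6.05, 5.01 and 5.27 in turn. All 10 keratins called after recovery were above every control in G3, against 6 in F5, 4 in G2 and 3 each in F1 and F3. The share of all probe sets above every control in G3 was not counted. More than 1 log2 unit above the highest control, G3 had 6 keratins, with 1.58% of all probe sets. Krt4 had the smallest difference from the control mean of the 6 in G3, at 5.95 against 4.72 to 5.08 in its group, below the 8.40 of N2. As a group, 3 cycles had 0 keratins called higher (background 1.02%) or lower (background 0.597%) with limma. Before adjustment 6 were higher and 1 lower at a p under 0.05, with no background counted. At the adjusted p alone, 2 were higher with a background of 8.81%, Krt7 by 0.35 and Krt9 by 0.32 (SE 0.07, adjusted p = 0.00372), and 0 lower with a background of 9.26%. In 4 keratins, Krt7, Krt80, Krt84 and Krt9, every 3 cycles mouse lay above every control, against 8.15% of all probe sets, and in 0 below, against 7.65%. Krt5 differed by 1.13 from control after 3 cycles (SE 0.90, adjusted p = 0.405), on a mean of 6.82 ± 2.29 (SD, n = 5) that rests on G3, and by 0.10 without G3 (SE 0.75, adjusted p = 0.950). Without G3, Krt7 missed the adjusted p (0.0689) and Krt9 kept it (0.0173). Krt84 differed by 0.79 from control after 3 cycles with an adjusted p of 0.0514, by 0.69 without G3 (adjusted p = 0.131), and passed the adjusted p with only the compared groups fitted (0.00486). With the array set as a covariate Krt9 missed the adjusted p after 3 cycles (0.416) and after recovery (0.610).

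Compared with the 2 cycles mice, which had the same DSS without the extra 3 weeks of water, 7 keratins were called higher in the recovery mice, where 0.152% of all probe sets were. Krt5 was 5.55, 5.73, 5.50, 5.66 and 5.86 in D4, D5, E2, E3 and E4, all below 4 of the 5 recovery mice, and M5 was within their range. The log2 difference was 4.65 (SE 0.90, adjusted p = 0.0221) for Krt5, 3.20 (SE 0.71, adjusted p = 0.0472) for Krt14, 4.19 (SE 0.69, adjusted p = 0.0119) for Krt4 and 3.91 (SE 0.73, adjusted p = 0.0221) for Krt13. Among the wound keratins it was 4.28 (SE 0.73, adjusted p = 0.0129) for Krt6a, 3.95 (SE 0.70, adjusted p = 0.0172) for Krt6b and 1.57 (SE 0.35, adjusted p = 0.0479) for Krt17. Krt14 and Krt17 were close to the limit: each missed the adjusted p in 26 of the 29 fits with 1 array left out, among them all 18 without a control, acute or 1 cycle array or without F1, F3, F5 or G2 (adjusted p from 0.0537 to 0.0630), which left 5 keratins called. Without M5, singled out for its low keratin values, the difference was 5.85 for Krt5 (adjusted p = 7.53e-06), 4.16 for Krt14 (adjusted p = 2.34e-05), 5.32 for Krt4 (adjusted p = 1.3e-10) and 2.00 for Krt17 (adjusted p = 0.000146). This comparison and the one against control share the recovery mice. Fitted on these 2 groups alone, 0 keratins were called, as was the case without E4, M1, M3 or N3, and the count without M5 was 9. At the adjusted p alone the count was also 7 higher (background 0.259%) and 0 lower (background 0.0197%). No keratin was called lower (background 0.00845%) with limma. Before adjustment 17 were higher and 0 lower at a p under 0.05, with no background counted.

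The array sets move with the recovery group. All controls were low and all recovery mice were high, so only the acute and 2 cycles mice separate array set from treatment. With the array set as a covariate, 0 keratins were called against control, with log2 differences of 4.52 for Krt5 (SE 1.34, adjusted p = 0.133), 4.28 for Krt4 (SE 1.03, adjusted p = 0.0633) and 4.17 for Krt6a (SE 1.08, adjusted p = 0.0769). Within the high arrays, 5 recovery and 3 of the 2 cycles mice, the Krt5 difference was 4.64 (SE 1.40, adjusted p = 0.659) and no keratin was called. For these 3 genes the difference was close to that without the covariate and its error was larger.

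Krt8 and Krt19 of the colonic epithelium were nearly level in all groups. Krt8, the main type II keratin of the colon, spanned 0.18 over all 29 mice, and Krt19, a type I keratin, spanned 0.36. Krt8 differed from control by 0.07 after recovery (95% interval -0.02 to 0.17) and by 0.03 in acute colitis (95% interval -0.06 to 0.13). Krt18, the partner of Krt8, differed by -0.16 in acute colitis (95% interval -0.38 to 0.06) and by 0.16 after recovery (95% interval -0.05 to 0.36). The lowest Krt18 value of all mice was 10.07, in acute mouse B3, while the other acute mice were between 10.52 and 10.58. Krt23, a type I keratin, was 6.32, 6.20, 5.66, 5.86 and 6.31 in M1, M3, M5, N2 and N3 against 5.63 to 5.91 in controls, a log2 difference of 0.28 (SE 0.11, adjusted p = 0.110). Without M5 it was 0.38 and passed the adjusted p (0.0200). Against 2 cycles Krt23 differed by 0.49 (adjusted p = 0.0631), and by 0.60 without M5 (adjusted p = 0.00314).

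Krt7 and Krt20 rose slightly. Krt7, a type II keratin of ducts and glands, read 9.06, 8.90, 9.23, 9.19 and 9.15 in controls, and every mouse of the 5 DSS groups was above all of these. In acute mice B2, B3, B4 and C3 it read 9.66, 9.31, 10.04 and 9.71. The log2 difference from control was 0.58 in acute colitis (SE 0.12, adjusted p = 0.000673), 0.46 after 1 cycle (SE 0.11, adjusted p = 0.0112), 0.43 after 2 cycles (SE 0.11, adjusted p = 0.0205), 0.35 after 3 cycles (SE 0.11, adjusted p = 0.0290) and 0.68 after recovery (SE 0.11, adjusted p = 0.000411). These comparisons share the control mice. Krt7 missed the adjusted p with the array set as a covariate after 2 cycles (0.280), 3 cycles (0.738) and recovery (0.172), and in acute colitis within the low arrays (0.0644). After 2 cycles it also missed it without A2, D4 or E2 (adjusted p from 0.0544 to 0.0660), and after 3 cycles without A1, A2, F1 or G3 (adjusted p from 0.0621 to 0.0773). Krt20, the type I keratin of mature surface colonocytes, read 11.79, 12.03, 11.31 and 11.80 in the acute mice against 10.95 to 11.39 in controls, with B4 inside the control range and a log2 difference of 0.54 (SE 0.15, adjusted p = 0.00920). After 1 cycle it was 11.53, 11.80, 11.40, 11.75 and 11.73 in J1, J5, K1, K2 and K3, above every control, with a difference of 0.45 (SE 0.14, adjusted p = 0.0532).

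**Figure D2:**
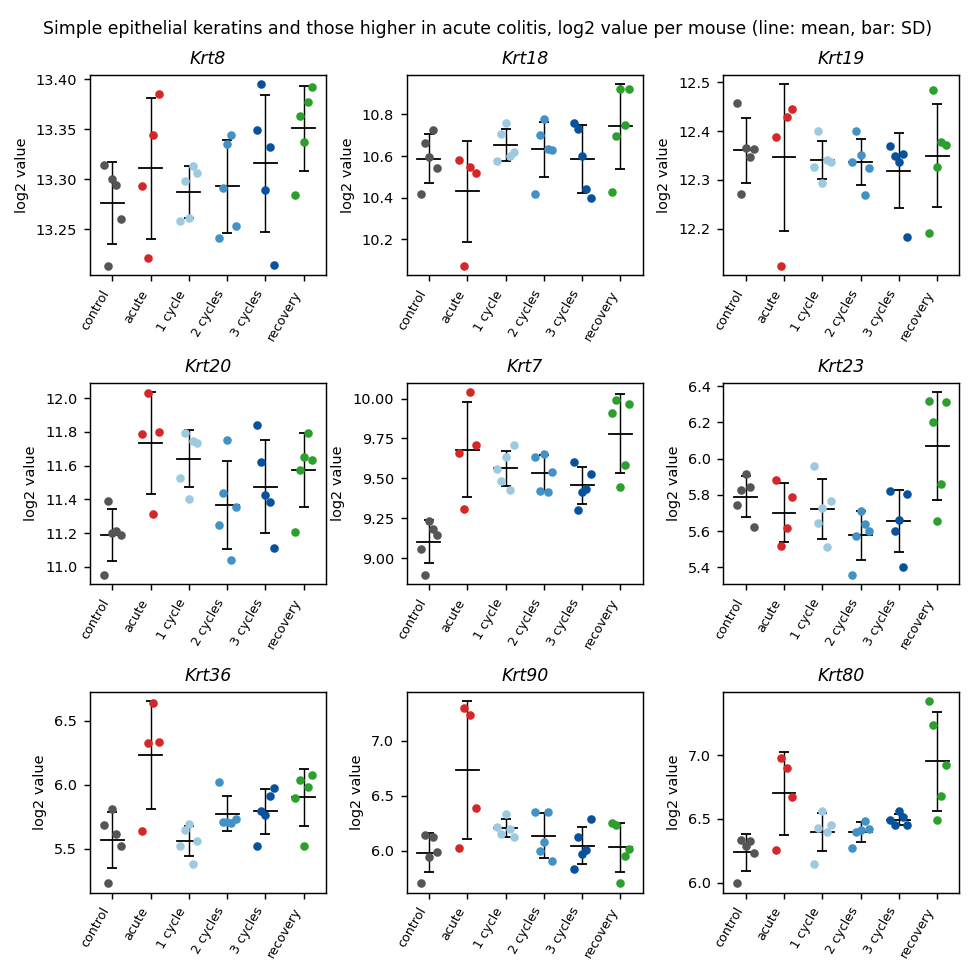
Log2 values of 6 simple keratins and of Krt36, Krt90 and Krt80 in each mouse (points) by group, with the group mean (line) and SD (bar), each panel on its own scale. Krt7 is above the controls in every DSS mouse, Krt8 spans only 0.18 in all, and Krt36 and Krt90 are highest in acute mice.

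In acute colitis 6 keratins rose at the adjusted p, with a background of 11.4%, none reached 2-fold, and 0 fell (background 11.6%). No keratin was called higher (background 1.38%) or lower (background 1.40%) with limma. Before adjustment 9 were higher and 0 lower at a p under 0.05, with no background counted. Beside Krt7 and Krt20 the 6 were Krt36, Krt84, Krt80 and Krt90. Krt36, a type I keratin of hair and tongue, read 5.64, 6.32, 6.63 and 6.34 in B2, B3, B4 and C3 and 5.68, 5.23, 5.81, 5.62 and 5.52 in controls. B3, B4 and C3 were above every control, and the log2 difference was 0.66 (SE 0.15, adjusted p = 0.00143). Krt90 read 6.02, 7.29, 7.23 and 6.39 against 5.70 to 6.14, a log2 difference of 0.75 (SE 0.18, adjusted p = 0.00288). B3 and B4 were the high mice of Krt90, whose acute SD was 0.63, and Krt90 missed the adjusted p with only these groups fitted (0.0710). Krt84 read 5.79, 5.57, 6.77 and 6.53 against 4.97 to 5.52, a log2 difference of 0.96 (SE 0.30, adjusted p = 0.0197). Krt84 and Krt7 were the 2 keratins with every acute mouse above every control, against 8.86% of all probe sets. Without A1, B2 or B3 it passed 2-fold and became the only keratin called, and without B4 or C3 it missed the adjusted p (0.106 and 0.0726). Krt80 was higher by 0.46 (SE 0.14, adjusted p = 0.0190), and missed the adjusted p without A1, B3 or B4 (adjusted p from 0.0588 to 0.0820) and with only these groups fitted (0.0606). Within the low arrays, which hold 2 acute mice, Krt36 (adjusted p = 0.192), Krt90 (0.104), Krt84 (0.412) and Krt80 (0.191) all missed it.

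The wound keratins did not pass the test in acute colitis. Krt6a read 4.72, 5.26, 5.38 and 5.31 in B2, B3, B4 and C3 against 4.49 to 4.76 in controls, a log2 difference of 0.54 (SE 0.77, adjusted p = 0.672). The error of that fit includes the spread of the recovery mice, and with acute and control mice alone the adjusted p was 0.0257. Krt17 was lower in every acute mouse than in every control, with 5.68, 5.60, 5.78 and 5.88 against 5.93 to 6.81. No other of the 52 keratins had all acute values below all control values, as 8.28% of all probe sets did. Its log2 difference of -0.70 (SE 0.37, adjusted p = 0.187) did not pass with all groups fitted, and had an adjusted p of 0.0184 with only these groups. Against the mean of the 3 chronic groups, 2 keratins were higher in acute mice at the adjusted p, with a background of 6.60%, Krt36 by 0.53 (SE 0.12, adjusted p = 0.00469) and Krt90 by 0.61 (SE 0.15, adjusted p = 0.00787), and 0 were lower (background 5.66%). No keratin was called higher (background 0.282%) or lower (background 0.631%) in that comparison with limma. Before adjustment 6 were higher and 2 lower at a p under 0.05, with no background counted.

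After 1 cycle, 1 keratin rose at the adjusted p, Krt7 (background 3.40%), and after 2 cycles again 1, Krt7 (background 3.08%). With limma 0 were called higher or lower in either comparison, with backgrounds of 0.870% higher and 0.186% lower after 1 cycle and 0.907% and 0.124% after 2 cycles. Krt84 differed by 0.79 after 2 cycles (adjusted p = 0.105). At the adjusted p alone 0 fell after 1 cycle (background 3.54%) and 0 after 2 cycles (background 2.51%). Before adjustment, 2 were higher and 0 lower after 1 cycle, and 2 and 0 after 2 cycles, with no background counted. Every mouse was above every control in 2 keratins after 1 cycle, Krt7 and Krt20 (4.89% of all probe sets), and in 1 after 2 cycles, Krt7 (4.70%), and below in 0 after 1 cycle (4.35%) and 0 after 2 cycles (4.27%). The class medians lay between -0.07 and 0.07 after 1 cycle and between -0.05 and 0.12 after 2 cycles. In 2 cycles mouse D4, Krt84 was 7.34, the highest Krt84 value of all mice, and Krt14 was 7.29, while the other 2 cycles mice were at most 5.96 and 6.61. From 1 to 3 cycles no keratin was called higher (background 0.0732%) or lower (background 0.0479%) with limma. None passed the adjusted p alone upwards (background 1.12%) or downwards (background 0.648%). Before adjustment 4 were higher and 0 lower at a p under 0.05, with no background counted.

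Other genes of stratified epithelium were also higher after recovery, in the same mice. Of 19 measured genes of stratified squamous epithelium that are not keratins, 13 were called higher (background 1.08%) and 0 lower (background 0.563%) after recovery, and their median log2 difference was 1.81. Dapl1 read 9.96, 9.77, 5.36, 7.85 and 9.68 in M1, M3, M5, N2 and N3 and 4.87 to 5.04 in controls, a difference of 3.58 (SE 0.64, adjusted p = 0.000842), and Dsg3, a desmosomal cadherin of basal cells, differed by 2.90 (SE 0.55, adjusted p = 0.00146). Sprr1a, a cornified envelope precursor, differed by 3.06 (SE 0.41, adjusted p = 5.4e-05), and Trp63, a transcription factor of basal cells, by 0.93 (SE 0.23, adjusted p = 0.00818), which did not reach 2-fold. M5 was lowest and N2 second lowest of the recovery mice in the list mean, at 6.41 and 7.31, with 8.52 to 8.80 in the others and 7.44 in G3. Another list of 19 measured genes was drawn up for linkers and bundlers of keratin filaments. It also holds other keratinocyte genes that are neither, such as Krtdap. Of the 19, 2 were called higher (background 1.08%), Krtdap by 1.49 and Hrnr by 1.35. At the adjusted p alone, 7 passed in the upward direction (background 6.05%) and 1 in the downward direction (background 6.61%). Periplakin (Ppl) rose by 0.97 (SE 0.24, adjusted p = 0.00807) and Pkp1, a desmosomal plaque protein, by 0.74 (SE 0.22, adjusted p = 0.0316). These lists were chosen with results of these data known.

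The list means of muscle, urothelium and mesothelium markers stayed within their control ranges after recovery. The mean of 10 skeletal muscle genes ranged from 5.69 to 5.86 after recovery and from 5.66 to 5.89 in controls, and that of 3 urothelial genes from 6.09 to 6.17 and from 5.98 to 6.27. None of these, or of 6 mesothelial genes, passed the adjusted p after recovery (background 6.05% higher and 6.61% lower). Single genes differed by -0.21 to 0.21 for muscle, -0.12 to 0.09 for urothelium and -0.26 to 0.39 for mesothelium. The colonic epithelium list had 0 of 14 called (background 1.08% higher and 0.563% lower) and 3 lower at the adjusted p (background 6.61%), Slc26a3 by -0.82 (SE 0.23, adjusted p = 0.0198), Car4 by -0.73 (SE 0.20, adjusted p = 0.0190) and Epcam by -0.22 (SE 0.06, adjusted p = 0.0222). Its mean was 10.53 in M1, 10.82 in M3, 10.94 in M5, 10.84 in N2 and 10.85 in N3, and 10.37 in G3, against 10.92 to 11.05 in controls. How the share of colonic epithelium in each piece bears on the keratins was not tested.

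**Figure D3:**
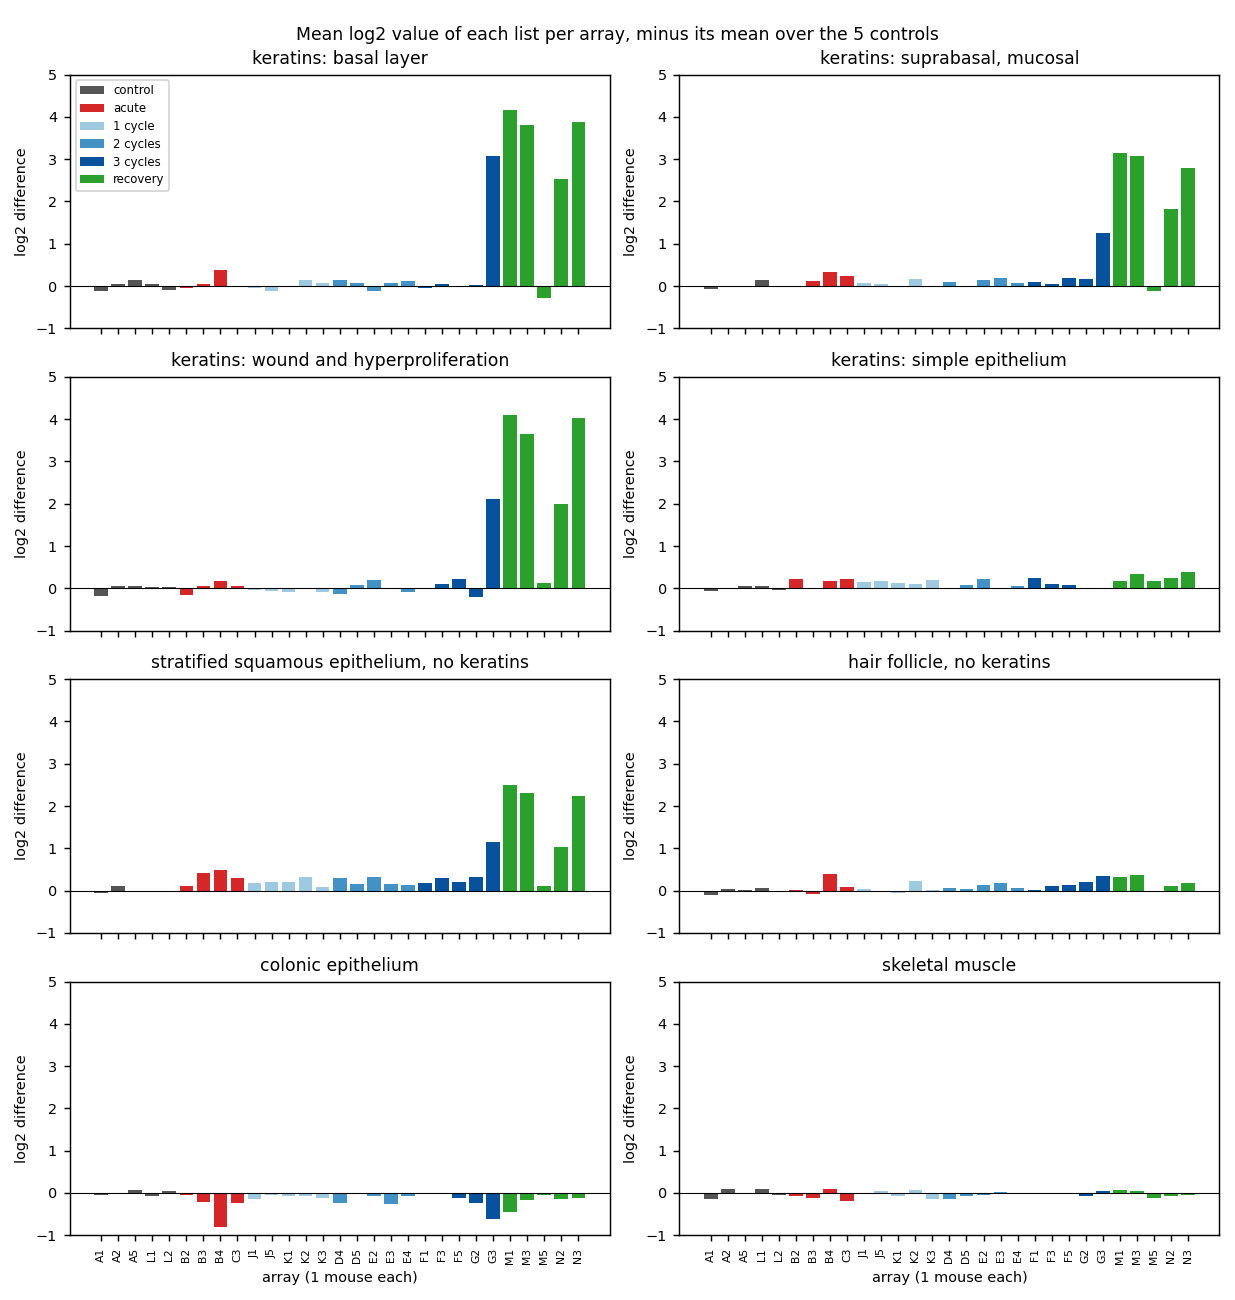
Mean log2 value of each keratin class and marker list per mouse (bars), minus its mean over the 5 controls, with 1 panel per list. Basal, mucosal and wound keratins and the other squamous genes are highest in M1, M3, N2, N3 and G3. M5 is near the controls, the other squamous genes are slightly higher in most DSS mice, and the skeletal muscle panel stays near 0.

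By position, 27 keratins lie on chromosome 11 and 25 on chromosome 15 in the RefSeq table, in a cluster of type I genes and a cluster of type II genes plus Krt18. Along chromosome 15, Krt6b, Krt6a and Krt5 are consecutive among the measured keratins and all were called. Krt75 before them differed by 0.18 and Krt71 after them by 0.22. Along chromosome 11, Krt14, Krt16 and Krt17 are consecutive and all were called, with Krt9 at 0.28 before them and Krt42 at 0.03 after them. Krt13 on chromosome 11 and Krt1, Krt4 and Krt84 on chromosome 15 were called with no called neighbour, and Krt15, next to Krt13, differed by 0.50.

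**Figure D4:**
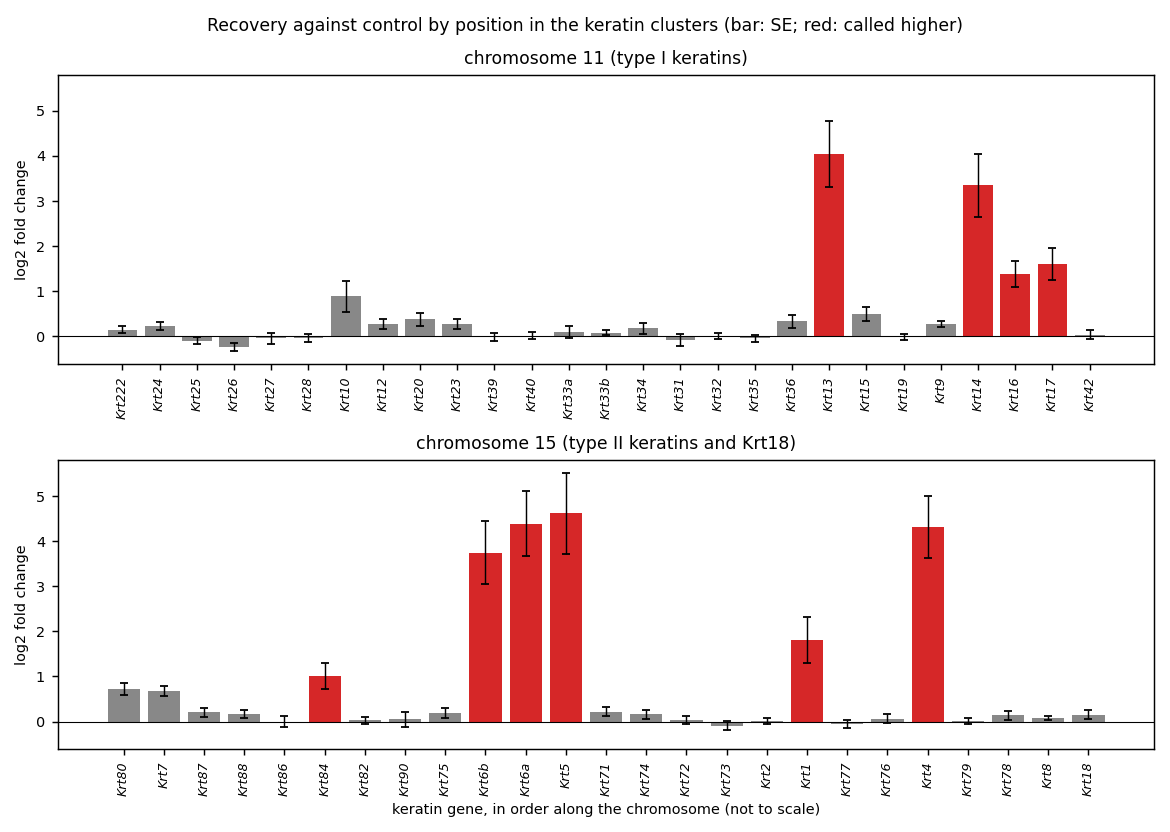
Log2 fold change of recovery against control (bars, with SE) for each keratin in its order along chromosomes 11 and 15, not to scale; red bars were called higher. The called genes are interspersed with keratins near 0, apart from the runs Krt6b, Krt6a and Krt5 and Krt14, Krt16 and Krt17.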

How the data were processed

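RNA of colon tissue from 29 mice was measured on Affymetrix Mouse Gene 1.0 ST arrays, 1 array per mouse, and 1 more acute array was not analysed here. RMA, run by the authors in R 2.12.2, gave the deposited log2 values, 1 for each probe set in each array. All 35511 probe sets were tested with no further filter, and 0 columns of values were left unmapped. Groups come from the labels, and label letter and digit name a mouse. No background level is given, so a low value cannot be told from no expression. The mean over all arrays was at most 5 in 10 keratins, among them Krt76, Krt2 and Krt9. The number of arrays limits the precision.

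Group means were fitted over all 6 groups with limma 3.58.1 in R 4.3.3, and in each of 8 comparisons the p-values of all probe sets received the Benjamini-Hochberg adjustment. Genes counted as called had an adjusted p below 0.05 with a fold over 2. The p-values measure the spread between single mice, with 1 spread per probe set over all 6 groups. For Krt5 the SD was 2.79 after recovery and 2.29 after 3 cycles, and 0.15 to 0.21 in the other groups. The error of Krt5 in every comparison includes that wide spread. Members and lists were chosen with earlier results of these data known. Named keratins are all those of the simple, basal, suprabasal and wound classes and any other that passed the adjusted p in a comparison; from the other classes and lists, up to 4 members with the largest difference after recovery were eligible, and any further one was picked after its values were seen. Of the class table, 4 genes were not measured and Krt88, absent from it, was counted among the others. The fit was tested on simulated data. Alternatives were the compared groups only, array weights, the label letter as random block, a filter on dim probe sets, a robust prior with trend, a second quantile normalization, centring, the array sets as a covariate and each array left out. Fits within the low and high arrays were added after the data were seen.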

Additional observations from a re-analysis of the deposited data

Results flagged for a closer look

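Over 156 pairs of a named keratin and a group, 13 had a mouse whose gap to the nearest other exceeded the 95% limit for its group's range, where chance gives about 1 in 20 groups. In 3 cycles mouse G3, 9 of these keratins stood apart: Krt19 at 12.18 below its group, and Krt5 at 10.91, Krt14 at 9.85, Krt15 at 6.10, Krt13 at 9.08, Krt9 at 5.12, Krt10 at 6.83, Krt6a at 7.85 and Krt6b at 8.99 above it. In 2 cycles mouse D4 Krt14 was 7.29 and Krt36 was 6.02, in acute mouse B3 Krt18 was 10.07, and in acute mouse B4 Krt14 was 6.79.

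The 52 keratins were searched with limma in 2 direct comparisons between DSS groups. At the adjusted p, 7 were higher in recovery than in 2 cycles mice (background 0.259%). In acute colitis against the mean of the 3 chronic groups 2 were higher (background 6.60%). Recovery exceeded 2 cycles by 4.65 for Krt5, 3.20 for Krt14, 4.19 for Krt4, 3.91 for Krt13, 4.28 for Krt6a, 3.95 for Krt6b and 1.57 for Krt17. Krt14 and Krt17 each missed the adjusted p in 26 of 29 fits with 1 array left out. Acute colitis exceeded the mean of the 3 chronic groups by 0.53 for Krt36 and 0.61 for Krt90.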

How the results depend on the processing

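Alternatives were run for 26 named keratins in 6 comparisons, and none changed direction past the threshold there. For these, 5649 values kept their side of the threshold, 148 lost the adjusted p and 61 gained it. Direction was compared only where the main or the alternative fit passed the adjusted p. Acute colitis had 0 keratins called higher, and 1, Krt84, with the array sets as a covariate (range 0 to 1 with an array left out: 1 without A1, B2 or B3). Recovery against control had 10, and 0 with the array sets as a covariate (range 8 to 11 with an array left out). Recovery against 2 cycles had 7, and 0 with only the compared groups, 3 with the array sets as a covariate (Krt4, Krt6a and Krt6b), and 0 within the high arrays. With an array left out it had 0 to 9: 0 without E4, M1, M3 or N3, 3 without D4, D5 or E2, 4 without E3, 9 without M5 or N2, 7 without G3 and 5 without any other array, where Krt14 and Krt17 missed the adjusted p. With the label letter as a random block the consensus correlation was -0.07, array weights ran from 0.320 to 1.84, and the dim filter left 25799 probe sets and removed 10 keratins. The mean of several probe sets gave no value, since each keratin has 1. No paired analysis was possible because each mouse belongs to 1 group and the labels pair no mice. Causes were not tested.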
